A study of Mus musculus with 7 samples.

Results

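Dnmt1, Dnmt3a, Dnmt3b, Uhrf1, Tet1, Tet2 and Tet3 are 7 mouse genes that encode DNA methyltransferases active on CpG sites, a cofactor of maintenance methylation and enzymes that oxidise 5-methylcytosine. They were chosen by name and function, with earlier results of these data already known. All 7 were found among the 29955 gene rows of the expression table, and all 7 passed the filter on low values that left 16900 genes for testing. Mouse embryonic fibroblasts (MEFs) of strain C57BL/6 were profiled by RNA sequencing in 7 libraries. Of these, 3 came from p53 KO cells, which lack the tumour suppressor p53. Another 2 came from p53Mdm2 KO cells, which also lack Mdm2, the ubiquitin ligase that binds p53. The other 2 came from cells called p53ko Mdm2 C462A ki, which lack p53 and carry a knock-in of the C462A substitution in the RING finger of Mdm2, the domain needed for ubiquitin ligase activity. Loss of p53 is thus shared by all 3 genotypes, no p53 wild-type sample was used here, and all cells grew in DMEM with fetal calf serum. The labels give no allele structure, Cre, passage, embryo or age, and do not say whether libraries of one genotype came from separate embryos, so that p-values measure only the spread between these samples. The study's title asks about Mdm2 and chromatin marks set by Polycomb repressor complex 2 in the absence of p53; the values below are those of the DNA methylation enzymes in the same libraries.

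In mammals, DNA methylation sits mostly on the cytosine of CpG dinucleotides, which are the same on both strands. After replication the new strand is bare. Uhrf1 binds such half-methylated sites and marks histone H3 with ubiquitin, which brings in Dnmt1 to copy the pattern. Dnmt3a and Dnmt3b place methyl groups on sites that had none. The Tet enzymes oxidise 5-methylcytosine to 5-hydroxymethylcytosine and further products, which are lost by dilution at replication or by base excision repair. Dnmt1 and Uhrf1 are expressed mainly in cycling cells, and Dnmt3b and Tet1 are best known from pluripotent cells.

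Promoter windows of 300 bases, from 250 before to 50 after an annotated start, were taken from RefSeq (build GRCm38.p6) for the 7 genes, with 12 windows in all. They were searched on both strands for TTTCCCGC, TTTCGCGC, TTTGCCGC and TTTGGCGC, forms of the site bound by E2F factors, the regulators of S phase genes. These 4 strings share their first and last letters, and a match to one excludes a match to another at the same position of a strand. A match was present in 2 of the 12 windows, the third window of Dnmt1 and the second window of Uhrf1, and in no window of Dnmt3a, Dnmt3b, Tet1, Tet2 or Tet3. Of all 32851 windows in the table, 2.26% held a match. Each of the 4 strings holds a CpG, and both windows with a match held 33 CpG, against a median of 7 over all windows. The share among windows as rich in CpG was not computed, so 2.26% is not a like comparison. The stretches around the matches are shown because Dnmt1 and Uhrf1 are the pair whose levels moved together across the libraries, with the match in capitals. The first Dnmt1 stretch holds the reverse complement of TTTCGCGC, lies at chr9:20952824-20952853 on the minus strand and is a UTR exon of one transcript and an intron of another. The second Dnmt1 stretch lies at chr9:20952574-20952601 on the minus strand, in an intron of 2 transcripts and a UTR exon of 2 others. The Uhrf1 stretch lies at chr17:56304117-56304146 on the plus strand, in an intron of 2 transcripts that start upstream.
Dnmt1, first match: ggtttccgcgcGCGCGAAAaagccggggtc
Dnmt1, second match: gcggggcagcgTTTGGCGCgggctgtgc
Uhrf1: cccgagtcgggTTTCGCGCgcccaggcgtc

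The 250 bases before the second annotated start of Uhrf1, at chr17:56304063-56304312 on the plus strand, place that match in a CpG-rich stretch with 30 CpG sites. The same letters are in capitals. The window of 300 bases around this start held 33 CpG, against a median of 7 over all windows. Over the 12 windows of the 7 genes the number of CpG ran from 2, in the first Dnmt1 window, to 57, in the Tet2 window. A match is a string of letters and was not measured as a bound site, and no factor binding or methylation was assayed in the data used here.
Uhrf1, upstream: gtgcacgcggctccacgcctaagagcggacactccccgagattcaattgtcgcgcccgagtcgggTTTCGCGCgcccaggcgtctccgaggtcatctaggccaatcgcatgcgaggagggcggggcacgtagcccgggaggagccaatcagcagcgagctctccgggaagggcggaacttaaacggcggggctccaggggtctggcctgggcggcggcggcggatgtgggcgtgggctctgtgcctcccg

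The deposited values were on a variance-stabilised log2 scale from which whole reads could be recovered. Levels below are normalised reads, that is reads divided by a factor for library depth, and differences are on the deposited log2 scale. Library totals ran from 28468283 to 41453822 reads, and 3 reads, taken as the floor of detection, were worth 2.65 to 3.86 normalised reads. A pair of libraries stood apart from the others. The first principal component (44.3% of the variance) separated p53 KO replicate 1, and the second (24.9%) separated C462A replicate 2. All 10 fibroblast markers had reads in every library, but in p53 KO replicate 1 the collagen gene Col1a2 had 3456 normalised reads against 175100 to 547600 in the other 6, and the surface marker Thy1 99.1 against 6592 to 37390. The list did not move as one in that library. Fn1 was also lowest there, at 156800, but S100a4 was highest there, at 37550 against at most 17240 elsewhere. Vim (155400) and Col3a1 (166700) were highest there too, but close to the next library (151300 and 166400). Of the other markers, the T cell gene Cd3e, the oligodendrocyte gene Olig2 and the pluripotency gene Lin28a were at 0 in every library. Summed over their lists, markers of epithelial cells had 65.7 to 1261 normalised reads, of endothelial cells 73.6 to 1056 and of blood cells 316 to 1084. The neural list summed to 3645 to 14650, mostly from Nes and Mtap2, and its gene Tubb3 had 18.2 in p53 KO replicate 1 and 388 to 1229 in the other 6 libraries. Mdm2 had 1746 to 1994 normalised reads in p53 KO, 1575 to 2334 in p53Mdm2 KO and 2033 to 2887 in C462A cells, and Trp53 had 687 to 1396, 1603 to 1775 and 1339 to 1668. The labels do not say which exons the alleles remove, so whole-gene reads check no label. In bulk RNA, fewer cells expressing a gene and less RNA per cell cannot be told apart.

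Dnmt1, the maintenance methyltransferase, had 15934, 10309 and 8006 normalised reads in the 3 p53 KO libraries, 8212 and 9837 in the 2 p53Mdm2 KO libraries, and 8065 and 4421 in the 2 C462A libraries. Replicate 1 of p53 KO was 1.96 times the median of the others and C462A replicate 2 was 2.04-fold under it, while the 5 libraries between them lay within 8006 and 10309. Group means were 11416.5 ± 4078 (SD, n = 3), 9024 ± 1149 (SD, n = 2) and 6243 ± 2576 (SD, n = 2). The groups overlapped in both comparisons with p53 KO.

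Uhrf1, which recruits Dnmt1 to replicated DNA, followed nearly the same order of libraries with a wider spread; only p53 KO replicate 3 and C462A replicate 1 changed places. It had 10779, 5237 and 3698 normalised reads in p53 KO, 3805 and 4943 in p53Mdm2 KO, and 3419 and 1678 in C462A cells. Replicate 1 of p53 KO was again highest, at 2.87 times the median of the others, and C462A replicate 2 again lowest, 2.61-fold under the median. Both C462A libraries lay below all 3 p53 KO libraries, although the gap between 3419 and 3698 was small beside the range within p53 KO; such a separation, lower in C462A, held for 14.4% of all genes tested. The log2 range over the 7 libraries was 2.67 for Uhrf1 and 1.85 for Dnmt1, at the 90.5th and 82.3rd percentile of 12859 genes with a mean of at least 100 normalised reads, whose median range was 0.89.

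**Figure D1:**
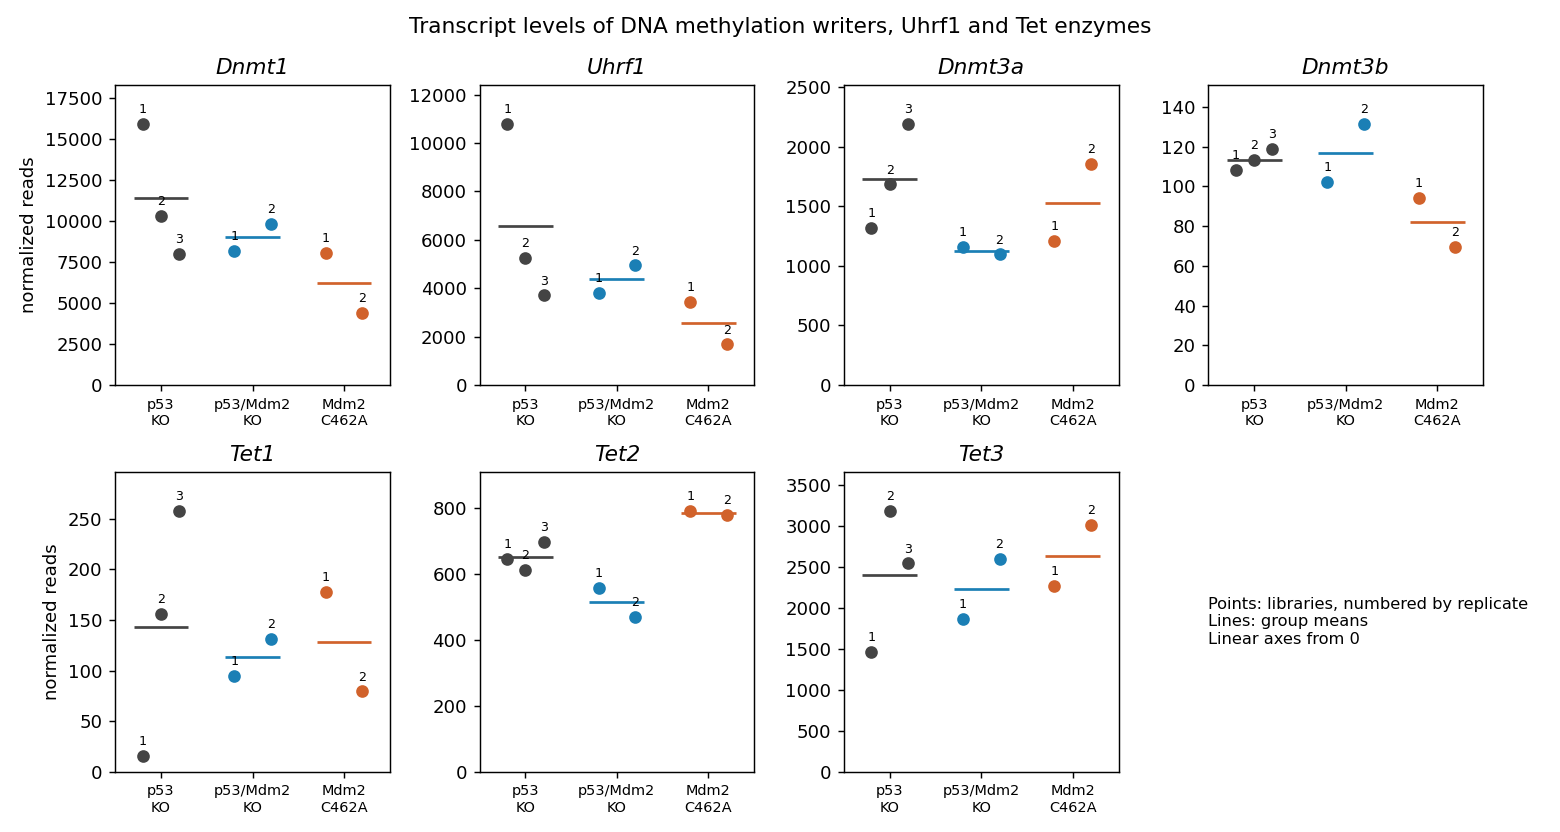
Normalised reads of each of the 7 genes per library, on linear axes that start at 0, with points numbered by replicate and horizontal lines at group means. Replicate 1 of p53 KO is highest for Dnmt1 (15934) and Uhrf1 (10779) and lowest for Tet1 (15.5), and the 3 genotypes do not overlap for Tet2.

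By limma on the deposited values, Uhrf1 differed by -1.30 (SE 0.50, 95% interval -2.51 to -0.09) on the log2 scale in C462A against p53 KO cells, with an unadjusted p of 0.0391 and an adjusted p of 0.462. Dnmt1 differed by -0.87 (95% interval -1.77 to 0.02; adjusted p = 0.485, limma). In p53Mdm2 KO against p53 KO cells the differences were -0.45 (-1.66 to 0.76) for Uhrf1 and -0.29 (-1.18 to 0.61) for Dnmt1, with an adjusted p of 1 for both by limma. Neither gene passed the threshold of 0.05 in any comparison, and nor did any other of the 16900 genes (0% called in each). Both values rested on the libraries that stood apart. Without p53 KO replicate 1 the p53Mdm2 KO difference was -0.02 for each gene, and the C462A difference was -0.87 for Uhrf1 and -0.60 for Dnmt1. Without C462A replicate 2 the C462A differences were -0.79 and -0.44, and without both libraries they were -0.36 and -0.17.

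Dnmt1 and Uhrf1 tracked each other across the libraries, with a Pearson r of 0.995 over 7 libraries and 0.983 over the 5 left without the 2 that stood apart. The ratio of Dnmt1 to Uhrf1 reads was nevertheless not constant. It was 1.48, 1.97 and 2.17 in p53 KO, 2.16 and 1.99 in p53Mdm2 KO, and 2.36 and 2.63 in C462A libraries, so it was lowest where both genes were highest.

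Because both genes are expressed mainly in S phase, they were set beside a list of 25 DNA replication genes (such as the Mcm helicase subunits), each gene taken as its deviation from its mean over the 7 libraries. The mean deviation of the list was 0.98, 0.17 and -0.07 on the log2 scale in p53 KO, -0.11 and 0.19 in p53Mdm2 KO, and -0.26 and -0.90 in C462A libraries. Dnmt1 deviated by 0.87, 0.24, -0.12, -0.08, 0.18, -0.11 and -0.97 in the same order, and Uhrf1 by 1.36, 0.32, -0.18, -0.14, 0.24, -0.29 and -1.31. The difference between Dnmt1 and the list lay between -0.11 and 0.15 in every library. For Uhrf1 it was 0.38 in p53 KO replicate 1 and -0.41 in C462A replicate 2, and smaller in the other 5. The share of replicating cells was not measured, and its part in the level of either gene was not tested.

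**Figure D2:**
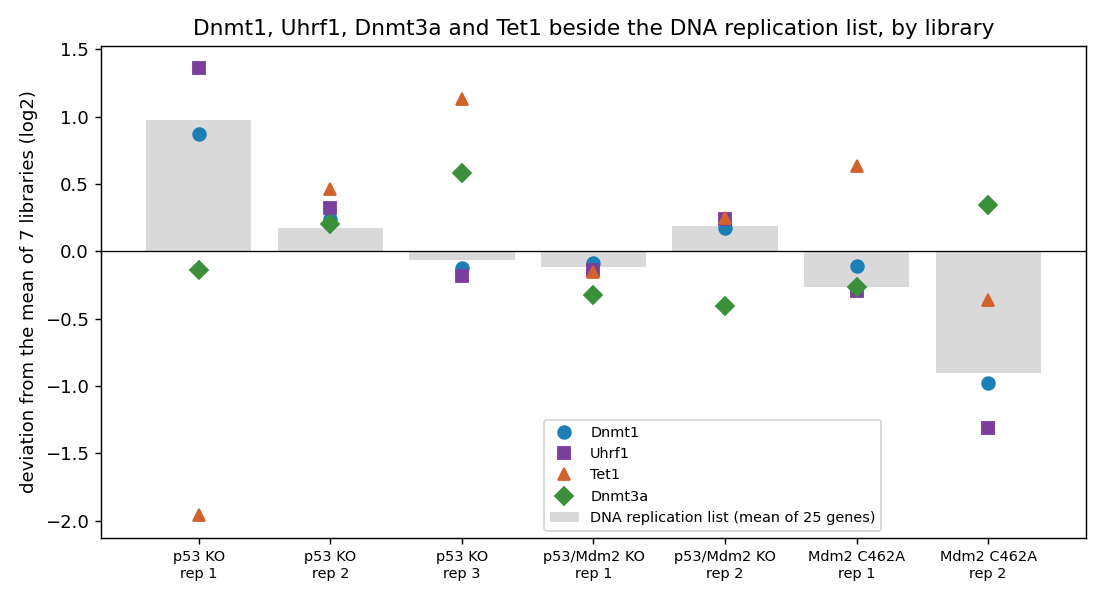
Deviation from the mean over 7 libraries (log2) of Dnmt1, Uhrf1, Tet1 and Dnmt3a (points) beside the mean deviation of 25 DNA replication genes (bars) in each library. Dnmt1 stays within -0.11 and 0.15 of the bars, whereas Uhrf1 goes beyond them in p53 KO replicate 1 (1.36 against 0.98) and C462A replicate 2 (-1.31 against -0.90).

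Of these 25 replication genes, 24 had a difference below 0 in p53Mdm2 KO and all 25 in C462A against p53 KO cells, with medians of -0.32 and -0.83 against -0.01 and 0.01 over all genes tested. None passed the adjusted threshold by limma. At an unadjusted p under 0.05, 12 of the 25 were lower in C462A cells, against 5.44% of all genes. Without p53 KO replicate 1, 13 of the 25 were below 0 in p53Mdm2 KO cells, with a median of -0.03. Without both libraries that stood apart the median in C462A cells was -0.24, with 22 of 25 below 0. In that fit 2 of the 25 were lower at an unadjusted p under 0.05 by limma, against 3.87% of all genes. The 20 mitosis genes had medians of -0.37 and -1.36, and their mean deviation was lowest, at -1.36, in C462A replicate 2. At an unadjusted p under 0.05 by limma, all 20 were lower in C462A cells, against 5.44% of all genes. In p53Mdm2 KO cells 0 were, against 1.49%. Without both libraries the mitosis medians were -0.26 and -0.64, with all 20 below 0 in each comparison. Rrm1, a subunit of ribonucleotide reductase, had a difference of -0.80 (adjusted p = 0.437, limma) and Ccne1, cyclin E1, one of -1.68 (adjusted p = 0.437, limma) in C462A against p53 KO cells, where Ccne2, cyclin E2, had -1.67. In p53Mdm2 KO cells Rrm1 had -0.32, Ccne1 -0.75 and Cdc6, which loads the helicase, -0.56. Of the mitosis genes, Cdc20, needed for the exit from metaphase, and the kinase Plk1 had -0.40 and -0.49 in p53Mdm2 KO and -1.26 and -1.45 in C462A cells. Nusap1, a spindle protein, had -0.49 in the former and Melk, a kinase, -1.53 in the latter.

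Dnmt3a, the de novo methyltransferase with the higher level here, had 1322, 1685 and 2192 normalised reads in p53 KO, 1163 and 1097 in p53Mdm2 KO, and 1209 and 1856 in C462A libraries. Both p53Mdm2 KO libraries lay below all others, and the C462A pair overlapped p53 KO. Exact 95% Poisson intervals, which cover counting error only, ran from 1099 to 1229 in p53Mdm2 KO replicate 1. That overlapped C462A replicate 1 (1142 to 1279) but not p53 KO replicate 1 (1255 to 1392). Its order across libraries was not that of Dnmt1, with r = -0.39 between them over 7 libraries. Dnmt3a differed by -0.58 (SE 0.28, 95% interval -1.25 to 0.09) in p53Mdm2 KO against p53 KO cells, with an unadjusted p of 0.0806 and an adjusted p of 1 by limma. In contrast to Dnmt1 and Uhrf1, the difference was larger, -0.76, without p53 KO replicate 1, with an adjusted p of 0.999 by limma. It was -0.18 (-0.85 to 0.50) in C462A against p53 KO cells, -0.48 without C462A replicate 2, -0.36 without p53 KO replicate 1 and -0.66 without both (adjusted p = 0.664, limma).

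Dnmt3b, the second de novo enzyme, was read at a low level, with 108, 113 and 119 normalised reads in p53 KO, 102 and 131 in p53Mdm2 KO, and 94.2 and 69.7 in C462A libraries. Both C462A libraries were below the other 5. These levels rested on 79 to 122 reads per library, and exact 95% Poisson intervals, which cover counting error only, ran from 76.1 to 115 for C462A replicate 1 and from 97.5 to 143 for p53 KO replicate 3, so that they overlapped. The interval of C462A replicate 2, from 55.2 to 86.8, lay below those of all 3 p53 KO libraries, the lowest of which began at 89.6. The difference in C462A against p53 KO cells was -0.40 (-1.01 to 0.20; adjusted p = 0.627, limma), and in p53Mdm2 KO against p53 KO cells 0.03 (-0.58 to 0.63). The ratio of Dnmt3a to Dnmt3b reads was 12.2, 14.9 and 18.5 in p53 KO, 11.4 and 8.35 in p53Mdm2 KO, and 12.8 and 26.6 in C462A libraries, with the lowest and highest values in p53Mdm2 KO replicate 2 and C462A replicate 2.

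Tet1 was the least stable of the dioxygenases. It had 15.5, 156 and 258 normalised reads in p53 KO, 94.6 and 131 in p53Mdm2 KO, and 177 and 79.4 in C462A libraries. In p53 KO replicate 1 it rested on 17 reads (exact 95% Poisson interval 9.0 to 24.7 normalised reads) and lay 9.30-fold under the median of the other libraries, yet p53 KO replicate 3 was the highest of all 7. The log2 range of 3.09 was at the 92.8th percentile of genes. Since p53 KO held both ends of the range, the differences were 0.17 (-1.99 to 2.33) in p53Mdm2 KO and 0.26 (-1.91 to 2.42) in C462A against p53 KO cells, and both were negative, -0.75 and -0.66, without p53 KO replicate 1. On the linear scale the means ran the other way, with 143 ± 122 normalised reads (SD, n = 3) in p53 KO against 113 ± 25.9 (SD, n = 2) in p53Mdm2 KO and 128 ± 69.3 (SD, n = 2) in C462A cells, so that no direction can be given.

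The library with 17 Tet1 reads was also the one with few Col1a2 and Thy1 reads, whereas its Col1a1 level, 458000, lay within the range of the others (188000 to 689100). Its Fn1 level was the lowest of all libraries and its S100a4 level the highest. Its Vim and Col3a1 levels were the highest too, but close to those of the next library. Across the whole list of 10 fibroblast markers, summed normalised reads were 1004000, 1687000 and 2107000 in p53 KO, 1403000 and 932800 in p53Mdm2 KO, and 1450000 and 987000 in C462A libraries, with none of the 10 at 0. The 5 endothelial markers summed to 73.6 in p53 KO replicate 1 and to 453 to 1056 in the other 6 libraries. Most of the sum in those 6 was Kdr, at 312 to 994, against 22.7 in p53 KO replicate 1. Cdh5 and Emcn were also lowest there, but Tek (45.5) and Pecam1 (4.5) lay within the range of the others. The part of these markers in the Tet1 level was not tested. Nanog, a pluripotency gene set beside Tet1 and Dnmt3b, had 54.7 to 91.7 normalised reads, and Pou5f1, which defines pluripotent cells, had at most 1.1.

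**Figure D3:**
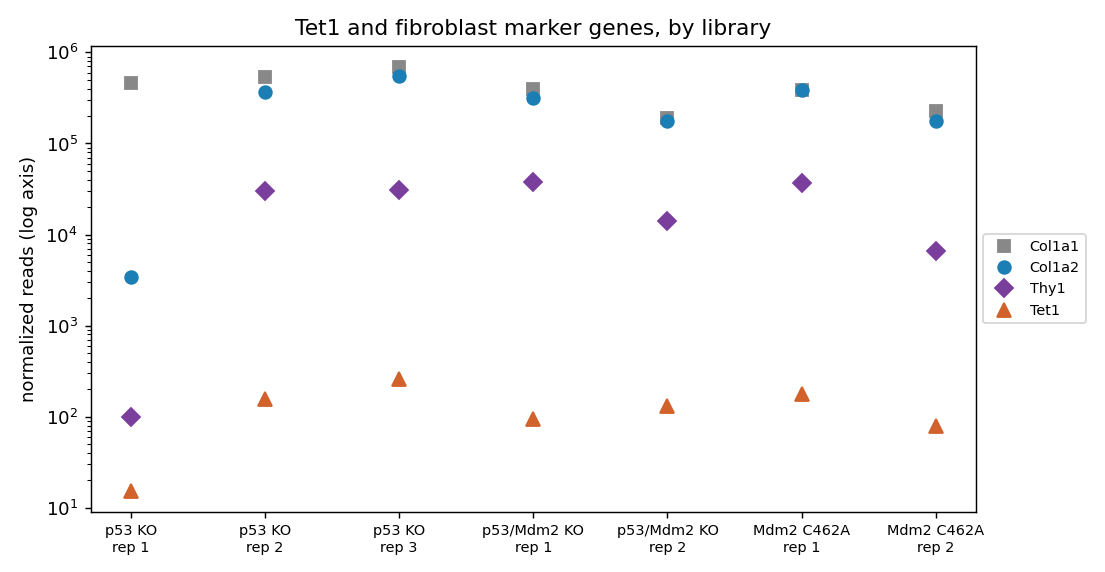
Normalised reads per library on a log axis for Tet1 and for the fibroblast genes Col1a1, Col1a2 and Thy1, which were chosen after their values were seen. In p53 KO replicate 1, Tet1 (15.5), Col1a2 (3456) and Thy1 (99.1) lie below all other libraries and Col1a1 (458000) does not. Fibroblast markers not drawn include Fn1, lowest in that library, and S100a4, highest in it. Vim and Col3a1, also not drawn, were highest in it but close to the next library.

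Tet2, often mutated in blood cancers, had the smallest log2 range of the 7 genes, 0.73, at the 37.0th percentile, next to 0.76 for Dnmt3b. It had 646, 614 and 699 normalised reads in p53 KO, 558 and 471 in p53Mdm2 KO, and 793 and 779.7 in C462A libraries. No library of one genotype fell within the range of another, with p53Mdm2 KO lowest and C462A highest. Group means were 653 ± 43.1 (SD, n = 3), 514 ± 61.1 (SD, n = 2) and 786 ± 9.33 (SD, n = 2). Of the 16900 genes tested, 3.73% separated all 3 genotypes without overlap in some order and 0.172% in this order. The order was read from Tet2 itself, so 3.73% is the share to compare. Exact 95% Poisson intervals, which cover counting error only, overlapped between p53 KO replicate 2 (568 to 662) and p53Mdm2 KO replicate 1 (514 to 604). Those of p53 KO replicate 3 (646 to 755) and C462A replicate 2 (729 to 833) overlapped too. The C462A intervals began above where the p53Mdm2 KO ones ended. The largest difference was between C462A and p53Mdm2 KO cells, 0.60 (SE 0.20, 95% interval 0.12 to 1.08), with an unadjusted p of 0.0218 and an adjusted p of 0.9998 by limma. The differences from p53 KO were -0.34 (-0.77 to 0.10; adjusted p = 1, limma) in p53Mdm2 KO and 0.26 (-0.17 to 0.70; adjusted p = 0.66, limma) in C462A cells.

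Tet3, the most abundant dioxygenase, had 1459, 3184 and 2542 normalised reads in p53 KO, 1865 and 2593 in p53Mdm2 KO, and 2267 and 3009 in C462A libraries. The lowest and highest libraries were both p53 KO, and the genotypes overlapped in every comparison. The differences from p53 KO were -0.05 (-0.91 to 0.81) in p53Mdm2 KO and 0.20 (-0.67 to 1.06) in C462A cells. Tet1 and Tet3 were both lowest in p53 KO replicate 1, with r = 0.68 over 7 libraries and 0.45 over the 5 left without the 2 that stood apart. Between Dnmt1 and Tet3, r was -0.61 over 7 libraries and 0.74 over those 5.

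To compare genes with each other, normalised reads were divided by the length in kb of the longest coding transcript of each gene (GENCODE, GRCm38). In p53 KO cells the mean level per kb was 1945 for Dnmt1, 1832 for Uhrf1, 219.6 for Tet3, 179 for Dnmt3a, 71.1 for Tet2, 26.2 for Dnmt3b and 9.96 for Tet1. The order of these means was the same in the other 2 genotypes. In p53 KO the SDs between libraries were 695 per kb for Dnmt1 and 1038 for Uhrf1, and 79.95 for Tet3 and 45.1 for Dnmt3a. These genes were read in the same libraries, and differences between genes were not tested. The place of Dnmt3a depends on which transcript is used, since its coding transcripts run from 2.33 to 9.69 kb, and the isoforms cannot be told apart in gene totals.

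Across all 3 comparisons none of the 7 genes passed an adjusted p of 0.05 by limma, and the background share was likewise 0% of 16900 genes in each. At an unadjusted p under 0.05 0 of the 7 genes were called in p53Mdm2 KO against p53 KO cells, against 3% of all genes (1.49% lower and 1.51% higher). In C462A against p53 KO cells 1 of the 7 was called, Uhrf1, against 10.4% of all genes (5.44% lower and 4.98% higher). In C462A against p53Mdm2 KO cells 1 was called, Tet2, against 2.98% of all genes (1.78% lower and 1.2% higher). The differences of 5, 4 and 3 of the 7 genes lay below 0 in the 3 comparisons, against 51.8%, 48.8% and 48.3% of all genes. With limma voom on the recovered reads, 0 genes were called in each comparison after adjustment, and 470, 1724 and 458 at an unadjusted p under 0.05. In p53Mdm2 KO against p53 KO cells, groups did not overlap for 2 of the 7 genes, Dnmt3a and Tet2, both lower, against 9.2% of all genes lower, 8.99% higher and 18.2% in either direction. In C462A against p53 KO cells they did not overlap for Uhrf1 and Dnmt3b, both lower, against 14.4% of all genes lower, nor for Tet2, which was higher, against 14.1% of all genes higher and 28.6% in either direction. Between the C462A and p53Mdm2 KO pairs, Dnmt1, Uhrf1 and Dnmt3b were lower without overlap and Dnmt3a and Tet2 higher, against 17.1% and 15.8% of all genes, or 32.9% together. The median difference of the 7 genes was -0.29, -0.18 and 0.09 in the 3 comparisons, against -0.01, 0.01 and 0.01 over all genes. The first and second comparison share the p53 KO libraries.

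**Figure D4:**
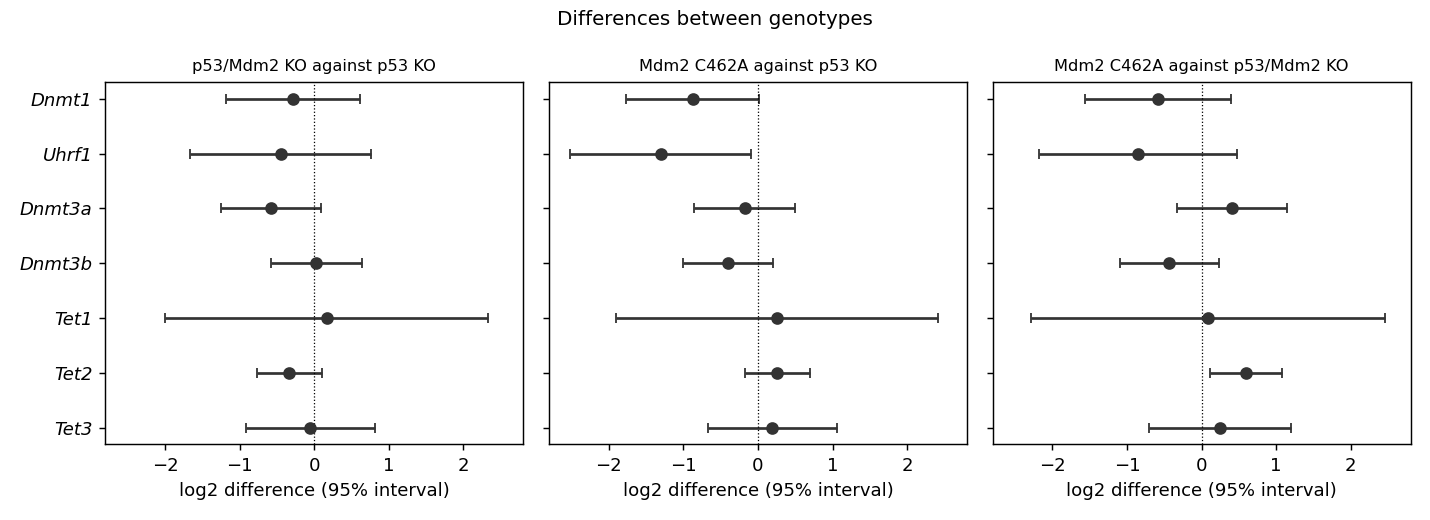
Log2 difference of each of the 7 genes in 3 comparisons of genotypes by limma, with 95% intervals. The intervals of Uhrf1 in C462A against p53 KO (-2.51 to -0.09) and Tet2 in C462A against p53Mdm2 KO (0.12 to 1.08) leave out 0 before adjustment, and those of Tet1 are the widest.

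For each of the 7 genes, the 3 other genes whose deposited values followed it most closely were sought among 11899 named genes with a mean of at least 100 normalised reads. The r values below are over the same 7 libraries, in which 2 stand apart, and describe these libraries only. For Dnmt1 they were Uhrf1 (r = 0.995), Fzr1 (0.994), an activator of the anaphase-promoting complex, and Mcm3 (0.994), a subunit of the replicative helicase. For Uhrf1 they were Fzr1 (0.996), Gins2 (0.996), also part of the replicative helicase, and Dnmt1 itself. Dnmt1 had r over 0.9 with 541 genes and Uhrf1 with 578. Dnmt3a and Tet2 had few close followers, 22 and 16 genes with r over 0.9. Those closest to Dnmt3a were Zfp46 (0.98), Snrk (0.978), a kinase, and the transcript AK007436 (0.9747), and those closest to Tet2 were Iqsec2 (0.972), Npc1 (0.970), a cholesterol transporter of the lysosome, and Gng7 (0.964), a G protein subunit. Dnmt3b was followed by Rbmx (0.994), an RNA-binding protein, Usp14 (0.991), a deubiquitinase of the proteasome, and Kif20b (0.991), a mitotic kinesin. The genes nearest to Tet1 were Itga9 (0.993), an integrin subunit, Wnt5a (0.991), a secreted Wnt ligand, and Fam62b (0.987). Itga9 ran from 25.5 normalised reads in p53 KO replicate 1 to 606 in p53 KO replicate 3, the same lowest and highest libraries as Tet1. The genes nearest to Tet3 were Plekhm3 (0.990), Bptf (0.984), a chromatin remodelling subunit, and Dgkh (0.980), a diacylglycerol kinase.

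Partners of maintenance methylation, such as Lig1, which joins Okazaki fragments, and the remodeller Hells, were tested for 10 of 11 listed genes. In both comparisons with p53 KO, 9 of the 10 had a difference below 0, with medians of -0.28 in p53Mdm2 KO and -0.61 in C462A cells, and none passed the adjusted threshold by limma. Without p53 KO replicate 1 the p53Mdm2 KO median was -0.05, with 7 of 10 below 0, and without both libraries that stood apart the C462A median was -0.28. Lig1 had 5635, 2722 and 2390 normalised reads in p53 KO, 2324 and 2263 in p53Mdm2 KO, and 2212 and 1059 in C462A libraries, so that both pairs lay below all p53 KO libraries. Its difference was -1.11 (SE 0.45) in C462A against p53 KO cells, with an adjusted p of 0.475 by limma. Smchd1, a silencer of the inactive X chromosome, and Hells had differences of -0.60 and -0.90 in the same comparison. In p53Mdm2 KO cells Lig1 had -0.53, Smchd1 -0.26 and Ehmt1, a histone H3 lysine methyltransferase, -0.30.

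Partners of de novo methylation were tested for 9 of 10 genes, of which 5 in p53Mdm2 KO and 6 in C462A cells were below 0, with medians of -0.08 and -0.06. Without both libraries the C462A median was -0.27. Suv39h1, a heterochromatin methyltransferase, had a difference of -0.78 in C462A cells and Cbx5, which binds its mark, -0.63, with adjusted p of 0.437 and 0.474 by limma. Zfp57, which guards imprinted methylation, had 5720 normalised reads in C462A replicate 2 and 917 to 2137 in the other 6 libraries, with differences of 0.53 in p53Mdm2 KO and 1.18 in C462A cells. Trim28, the corepressor that Zfp57 binds, had -0.25 and Setd2, a histone H3 lysine 36 methyltransferase, -0.20 in p53Mdm2 KO cells. Dnmt3l, the cofactor of the de novo enzymes in germ cells, was under the filter. The 10 readers of methylated CpG had medians of -0.13 and 0.01, and none passed the adjusted threshold by limma. In p53Mdm2 KO cells Zbtb4 had a difference of -0.35, Mbd2 -0.22 and Zbtb33 -0.20. In C462A cells Mbd1 had 0.36, Zbtb4 -0.20 and Zbtb38 -0.37.

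Cofactors of the Tet enzymes and genes of base excision repair were tested for 20 of 21 listed genes, with 12 and 10 differences below 0 and medians of -0.02 and -0.05. Cxxc5, a CpG-binding protein that can recruit Tet2, had 1861, 1173 and 1098 normalised reads in p53 KO, 765 and 941 in p53Mdm2 KO, and 420.0 and 415 in C462A libraries. The 3 genotypes did not overlap, and C462A was lowest. The difference in C462A against p53 KO cells was -1.63 (SE 0.27), and in p53Mdm2 KO cells -0.65 (SE 0.27), with adjusted p of 0.437 and 1 by limma. Tet2 was highest and Cxxc5 lowest in the C462A libraries, but in p53Mdm2 KO cells both were lower than in p53 KO cells. A link between their levels was not tested. Gadd45g and Gadd45a, stress-response genes linked to demethylation, had differences of -1.68 and 2.45 in C462A against p53 KO cells, but Gadd45a had 4456 normalised reads in C462A replicate 2 against 203 to 1138 in the other 6 libraries. Gadd45g had 660.5 and 719 in C462A libraries against 1289 to 2729 elsewhere. In p53Mdm2 KO cells Idh2, which makes the Tet cosubstrate 2-oxoglutarate in mitochondria, had -0.54 and Ogt, a glycosyltransferase that binds Tet proteins, 0.43. None of the 20 genes passed the adjusted threshold by limma.

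Methyl donor supply was tested for 9 of 12 genes, with 6 and 5 differences above 0 and medians of 0.11 and 0.06. The C462A median was -0.14 without C462A replicate 2 and -0.07 without both libraries. None passed the adjusted threshold by limma. Mtrr, which reactivates methionine synthase, had differences of 0.29 in p53Mdm2 KO and 0.42 in C462A cells. Mtr, methionine synthase itself, had -0.44 in p53Mdm2 KO cells, and Ahcyl2 0.38 in C462A cells.

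Germline genes that promoter methylation commonly keeps silent in somatic cells were listed as 20 genes, of which 19 were in the table and 7 passed the filter. Tex101, Dpep3 and Rhox2a were at 0 reads in every library, under the floor of 3 reads, and the RNA-binding germ cell gene Dazl had at most 2.6 normalised reads. None of the 7 tested genes passed the adjusted threshold by limma. Their mean deviation was -0.22, -0.16 and -0.18 in p53 KO, 0.41 and -0.64 in p53Mdm2 KO, and -0.01 and 0.81 in C462A libraries, so that the 2 libraries of each of the latter genotypes fell far apart. Their median difference in C462A against p53 KO cells was 0.55, and -0.28 without C462A replicate 2, so no direction can be given. Xlr3a, an X-linked family gene whose near-identical copies can share reads, had 223 normalised reads in C462A replicate 2 and 0.91 to 44.6 in the other 6 libraries. Ddx4, a germ cell helicase, had its highest value, 204, in p53Mdm2 KO replicate 1 and its lowest, 6.4, in p53Mdm2 KO replicate 2. Tuba3a, a tubulin gene with close copies, was read at 3521 to 12330 and had differences of -0.46 in p53Mdm2 KO and -1.14 in C462A cells. Taf7l, a germ cell transcription factor subunit, had 45.9 normalised reads in C462A replicate 2 and at most 13.9 in the other 6 libraries. It passed the filter only through that 1 library, so its differences of 0.48 and 1.5 are a description only. Sycp3, a protein of meiotic chromosomes, had 0.24 in p53Mdm2 KO cells, and Xlr3a 1.93 in C462A cells. DNA methylation itself was not measured in the data used here.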

How the data were processed

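TruSeq RNA libraries of 7 MEF samples were read as single 50 bp reads, per the labels' protocols. The submitters' processing notes list DESeq 1.14.0, Bowtie2 2.1.0, CASAVA 1.8.2 and the mouse build mm9. The read counter, gene annotation and use of strand were not stated there, so reads of overlapping or antisense genes cannot be told apart. The authors deposited 1 table of log2 values, which the table's values show to be variance-stabilised, with a value of 3.36 for genes without reads. The scale was inverted and divided by the step of each library, which gave whole reads (within 0.05) for 100% of values. Depth limits the precision of low genes: 3 reads are worth 2.65 to 3.86 normalised reads.

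Groups were taken from the labels. limma 3.58.1 (R 4.3.3) was fitted to the deposited log2 values with 1 mean per genotype over all 7 libraries (4 residual degrees of freedom) and a mean-variance trend, for genes with a mean of at least 10 normalised reads. Tests were two-sided with Benjamini-Hochberg adjustment over all 16900 genes and a threshold of 0.05. Since the unit is log2 and not counts, voom on the recovered reads was an alternative only. On simulated data for C462A against p53 KO with 16900 genes, the fit called 6 of 50 genes changed by 1 on the log2 scale, 32 of 50 changed by 2 and 46 of 50 changed by 5. The simulated noise was normal and independent between genes and libraries, so no library stood apart in it. Only genes with a mean above 7 on the deposited scale were changed, and Dnmt3b and Tet1 lie below that. These counts therefore do not say how often a change in the 7 genes would be called. Other alternatives changed the filter, log scale, scaling, variance model, samples in the fit, replicate block and libraries left out; lists without the libraries that stood apart were added after seeing the data. The TMM-like scaling was a trimmed mean. No 2 libraries of the same genotype were alike within sampling noise; pairs between genotypes were not compared.

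The text names all 7 genes, the 3 best-correlated genes of each (unnamed transcripts skipped), and from each list the genes called or, where none was, the 3 with the smallest unadjusted p in each comparison with p53 KO, except 1 gene that is not reported here; markers and the other list members named were chosen after their values were seen. Members and lists were chosen with earlier results of these data known. No coordinates were converted: sequences come from RefSeq on GRCm38.p6, not the authors' build.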

Additional observations from a re-analysis of the deposited data

How the results depend on the processing

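None of the 7 genes passed an adjusted p of 0.05 in any setting run, and the smallest adjusted p of any of them was 0.28. Of 252 log2 differences under settings other than leaving out 1 library, 241 kept their direction. The exceptions follow. With the replicate block, Dnmt3a was 0.0052 in C462A and Tet3 0.028 in p53Mdm2 KO against p53 KO cells. With quantile normalisation, Tet3 was 0.0135 in p53Mdm2 KO against p53 KO and Tet1 -0.0052 in C462A against p53Mdm2 KO cells. With sample weights, Tet1 was -0.54 in p53Mdm2 KO and -0.45 in C462A against p53 KO, and Tet3 -0.11 in the latter. Without both outlying libraries, Tet1 was -0.75 and -0.16 in these 2 comparisons, Tet3 -0.33 in C462A and Dnmt3b -0.00022 in p53Mdm2 KO against p53 KO. The cause was not tested.

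Leaving out each library in turn, 132 of 147 differences kept their direction. The 15 others fall in these ranges: Dnmt3a in C462A against p53 KO, -0.48 to 0.13; Dnmt3b in p53Mdm2 KO against p53 KO, -0.13 to 0.18; Tet1, -0.75 to 0.79 in p53Mdm2 KO and -0.66 to 0.88 in C462A against p53 KO, and -0.41 to 0.59 in C462A against p53Mdm2 KO; Tet3 against p53 KO, -0.37 to 0.19 in p53Mdm2 KO and -0.12 to 0.44 in C462A.

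Over all genes, 0 were called in each comparison by limma, with 507, 1761 and 503 at an unadjusted p under 0.05. The count was 0 to 0 with any 1 library left out. Without both outlying libraries 1 gene was called in p53Mdm2 KO against p53 KO cells, Ifi202b, an interferon-inducible gene, at -6.70. The labels state no pairing of libraries. Same-numbered libraries deviated together from their group means with r from -0.16 to 0.20. In the p53Mdm2 KO and C462A pairs one deviation mirrors the other, so these values cannot decide whether the replicate numbers pair the libraries. The replicate block called 0 genes by limma, with 442, 1486 and 279 at an unadjusted p under 0.05.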
